A study of Homo sapiens with 8 samples.

Results

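The interferon response and antigen presentation genes described here are 48 human genes: sensors of double-stranded RNA, transcription factors and feedback proteins of the pathway, antiviral effectors, and the proteins that load and display peptides on the cell surface. A probe set, the group of array probes summarised into 1 value, was counted as a member where a gene symbol in the platform's probe table was one of the 48. Of these genes, 46 were named by at least 1 probe set, and STAT2 and HLA-E by none. Their 54 probe sets included 2 copies of the TAP1 probe set with identical values, which were left out, so that 52 of the 21214 named probe sets tested are members, and 46 of the 20172 genes these name. By role, 9 belong to sensors and effectors of double-stranded RNA, 8 to transcription factors and feedback, 21 to other induced antiviral genes, and 14 to antigen presentation and butyrophilins. Among the 52, 7 carry several gene names: 6 combine HLA-B with HLA-C or HLA-F, and 1 combines USP18 with USP41P.

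The study measured RNA on Affymetrix Human Gene 1.0 ST arrays in T47D, an established line of luminal human breast carcinoma. The groups were cells with the conditional EglN2 shRNA at day 2 (48 h of doxycycline at 1 ug/ml), the same cells at day 0 (0 h), cells with the Scr control shRNA at day 2 (48 h) and the same Scr cells at day 0 (0 h), with 2 arrays each and 8 in all. All groups carry a lentivirus that encodes a hairpin RNA, and no array of uninfected cells or of hairpin cells kept for 48 h without doxycycline was analysed here. Doxycycline itself, the production of a hairpin and time in culture therefore cannot be told apart in a day 2 against day 0 comparison. The labels do not say whether a line is 1 clone, nor that replicates came from separate cultures, so every p-value here reflects no more than the scatter of these samples, which could be purely technical.

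Interferons are secreted proteins that bind cell surface receptors and, through the kinases JAK1 and TYK2, switch on transcription factors that bind the interferon-stimulated response element (ISRE). Cells start to make interferon when sensors such as RIG-I (gene RIGI) and MDA5 (gene IFIH1) meet double-stranded RNA, and many sensors are themselves induced by interferon. The induced genes block viral replication and raise the display of peptides by HLA class I molecules, the signal read by cytotoxic T cells.

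Levels are log2 values made by RMA, a method that subtracts background, puts arrays on a common scale and combines the probes of each set, so that a difference of 1 is a doubling. Array medians lay between 7.81 and 7.86, replicate arrays correlated at 0.992 to 0.996, and 25 of the 52 member probe sets had a mean level at or above 7.84, the median of all named probe sets; the number of arrays limits the precision. EGLN2, the hairpin's target, read 8.26 and 8.29 in EglN2 shRNA cells at day 2 and 8.85 and 9.04 at day 0, against 8.81 and 8.90 in Scr cells at day 2 and 8.97 and 9.0 at day 0, and its difference of -0.67 in the EglN2 shRNA line did not pass the test (limma, adjusted p = 0.134). Its probe set also carries the RAB4B-EGLN2 read-through name. Of 13 probe sets for luminal markers such as ESR1, GATA3 and KRT8, 12 were at or above 7.84, with summed levels of 155.4 to 156.9 over the arrays. No leukocyte marker (0 of 7 probe sets) and 1 of 8 for endothelium and fibroblasts (COL1A1) reached it, with sums of 41.5 to 42.8 and 49.3 to 51.4.

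The promoters of the 4 members with the largest difference averaged over both lines and an entry in the RefSeq promoter table (GRCh38.p14) are printed here because each belongs to a gene that leads the results below. The window runs from 250 bases before to 50 after a gene's start. It was searched on both strands for the 10-base core of the ISRE, written as GAAA, any 2 bases, GAAA. IFIT2 ranked among them and is named only. Capitals mark a match, which on the other strand reads as the reverse complement. The windows are BTN3A2 at chr6:26364948-26365247 on the plus strand, PARP9 at chr3:122564251-122564550 on the minus strand, MX1 at chr21:41420308-41420607 on the plus strand and PARP14 at chr3:122680589-122680888 on the plus strand.
BTN3A2: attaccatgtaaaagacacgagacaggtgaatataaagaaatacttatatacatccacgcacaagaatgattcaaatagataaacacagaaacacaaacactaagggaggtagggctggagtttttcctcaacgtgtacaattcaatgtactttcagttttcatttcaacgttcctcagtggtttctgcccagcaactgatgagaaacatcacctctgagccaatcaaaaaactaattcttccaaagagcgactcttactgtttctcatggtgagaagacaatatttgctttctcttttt
PARP9: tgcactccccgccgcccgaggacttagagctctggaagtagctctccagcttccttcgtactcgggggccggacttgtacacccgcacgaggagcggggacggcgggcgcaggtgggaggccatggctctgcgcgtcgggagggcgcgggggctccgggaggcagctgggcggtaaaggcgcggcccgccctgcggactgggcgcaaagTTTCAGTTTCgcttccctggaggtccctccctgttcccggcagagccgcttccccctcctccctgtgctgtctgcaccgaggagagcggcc
MX1: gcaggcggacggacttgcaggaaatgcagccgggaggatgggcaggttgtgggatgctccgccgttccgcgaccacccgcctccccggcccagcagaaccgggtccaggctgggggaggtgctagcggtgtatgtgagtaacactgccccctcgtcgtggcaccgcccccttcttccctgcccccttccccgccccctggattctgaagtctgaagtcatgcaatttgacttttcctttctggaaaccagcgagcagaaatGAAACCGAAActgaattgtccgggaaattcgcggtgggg
PARP14: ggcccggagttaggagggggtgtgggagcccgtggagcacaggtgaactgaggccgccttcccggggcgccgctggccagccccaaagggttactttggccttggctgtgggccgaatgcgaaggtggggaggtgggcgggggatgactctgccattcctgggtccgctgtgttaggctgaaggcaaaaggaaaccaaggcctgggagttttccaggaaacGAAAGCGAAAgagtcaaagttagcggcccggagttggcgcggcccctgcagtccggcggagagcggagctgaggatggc
PARP9, MX1 and PARP14 each held 1 match in the printed windows, and BTN3A2 held 0. Some of these genes have more than 1 window, and only 1 is printed for each. MX1 has 3 windows, 2 of them with a match. PARP9 has 2, of which only the printed one matched. BTN3A2 has 2 windows, with a match in 0, and PARP14 has 1. Over all members with an entry, 27 of 39 genes (69.2%) had a match in at least 1 window, against 1195 of 27305 genes in the whole table (4.38%). The 39 include STAT2, which no probe set names. The members were listed as interferon response genes, so the higher share follows from that choice and is no result of these arrays. A match describes the letters of the window and says nothing of whether a factor was bound.

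Array by array, the members' place relative to their own means separates the Scr day 0 pair. The median deviation of the 52 probe sets from their means over 8 arrays was 0.057 and 0.079 in EglN2 shRNA cells at day 2 and 0.037 and -0.042 at day 0, against 0.061 and 0.106 in Scr cells at day 2 and -0.141 and -0.182 at day 0. Over all named probe sets that median lay between -0.018 and 0.022 on every array. The lowest of a member's 8 values fell on a Scr day 0 array for 15 probe sets (replicate 1) and 20 (replicate 2). Replicate 2 held the highest value of only 1 member, and replicate 1 that of 7. The matching counts over all named probe sets are not given here. Non-overlap was also more frequent over all named probe sets where Scr day 0 was compared. It was 23.0% higher and 24.8% lower in the Scr change, and 22.2% and 22.9% between the lines at day 0. In the EglN2 shRNA change it was 15.2% and 15.5%. The differences within the EglN2 shRNA line and between the lines at day 2 do not use the Scr day 0 arrays, and all others do. The spread behind every standard error and p-value was estimated over all 8 arrays, the Scr day 0 arrays included.

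**Figure D1:**
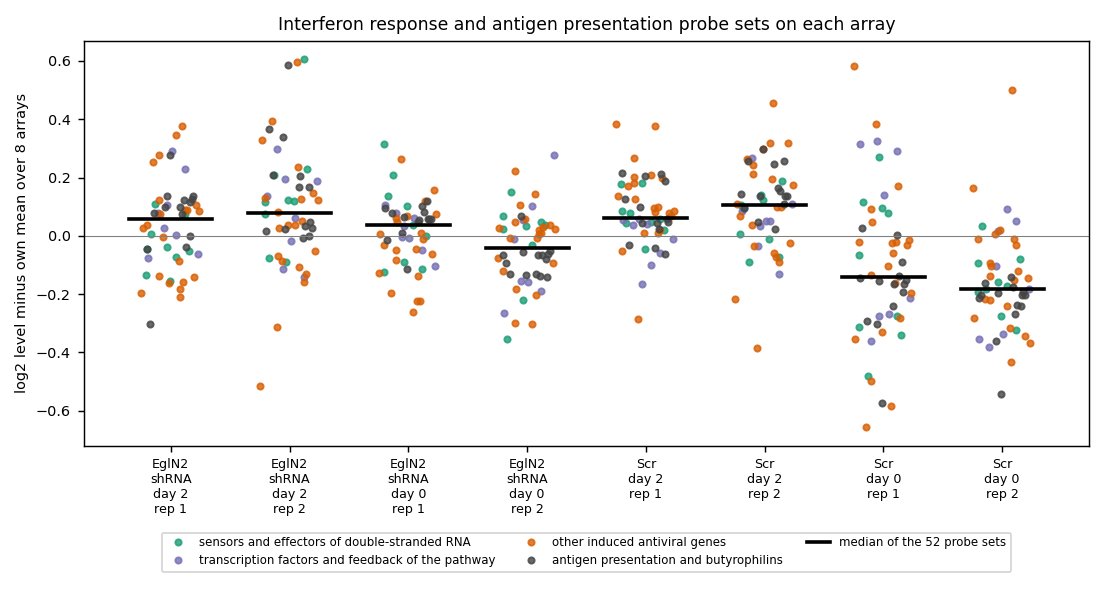
Deviation of each member probe set from its own mean over the 8 arrays (log2, vertical axis), by array, coloured by role. The Scr day 0 arrays sit lowest, with medians of -0.141 and -0.182, while the other 6 lie between -0.042 and 0.106.

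Day 2 was first set against day 0 with both lines averaged. BTN3A2, a butyrophilin of the family that takes part in phosphoantigen recognition by gamma delta T cells, rose, and it was the only one of the 52 probe sets to pass the test, limma with Benjamini-Hochberg adjustment over all named probe sets and a threshold of 0.05. BTN3A2 read 7.96 and 8.27 in EglN2 shRNA cells at day 2, against 7.57 and 7.55 at day 0. In Scr cells it read 7.89 and 7.98 at day 2, against 7.11 and 7.14 at day 0. Every day 2 array was above every day 0 array, and the Scr day 0 arrays were the lowest. The averaged difference was 0.68 (SE 0.09, 95% confidence interval 0.49 to 0.87), or 1.6-fold (limma, adjusted p = 0.0315). Over all named probe sets 0.141% passed. In bulk RNA, more cells with a transcript and more of it per cell cannot be told apart.

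The call of BTN3A2 was lost without any one of 7 of the 8 arrays. Leaving out replicate 2 of EglN2 shRNA day 2 gave an adjusted p of 0.06 (limma). For EglN2 shRNA day 0 it was 0.164 on omitting replicate 1 and 0.0978 on omitting replicate 2. For Scr day 2 it was 0.157 on omitting replicate 1 and 0.174 on omitting replicate 2, and for Scr day 0 it was 0.131 and 0.0919 in the same order (limma). It held without EglN2 shRNA day 2 replicate 1 (limma, adjusted p = 0.0394), and the difference stayed between 0.60 and 0.76 in all 8 fits.

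**Figure D2:**
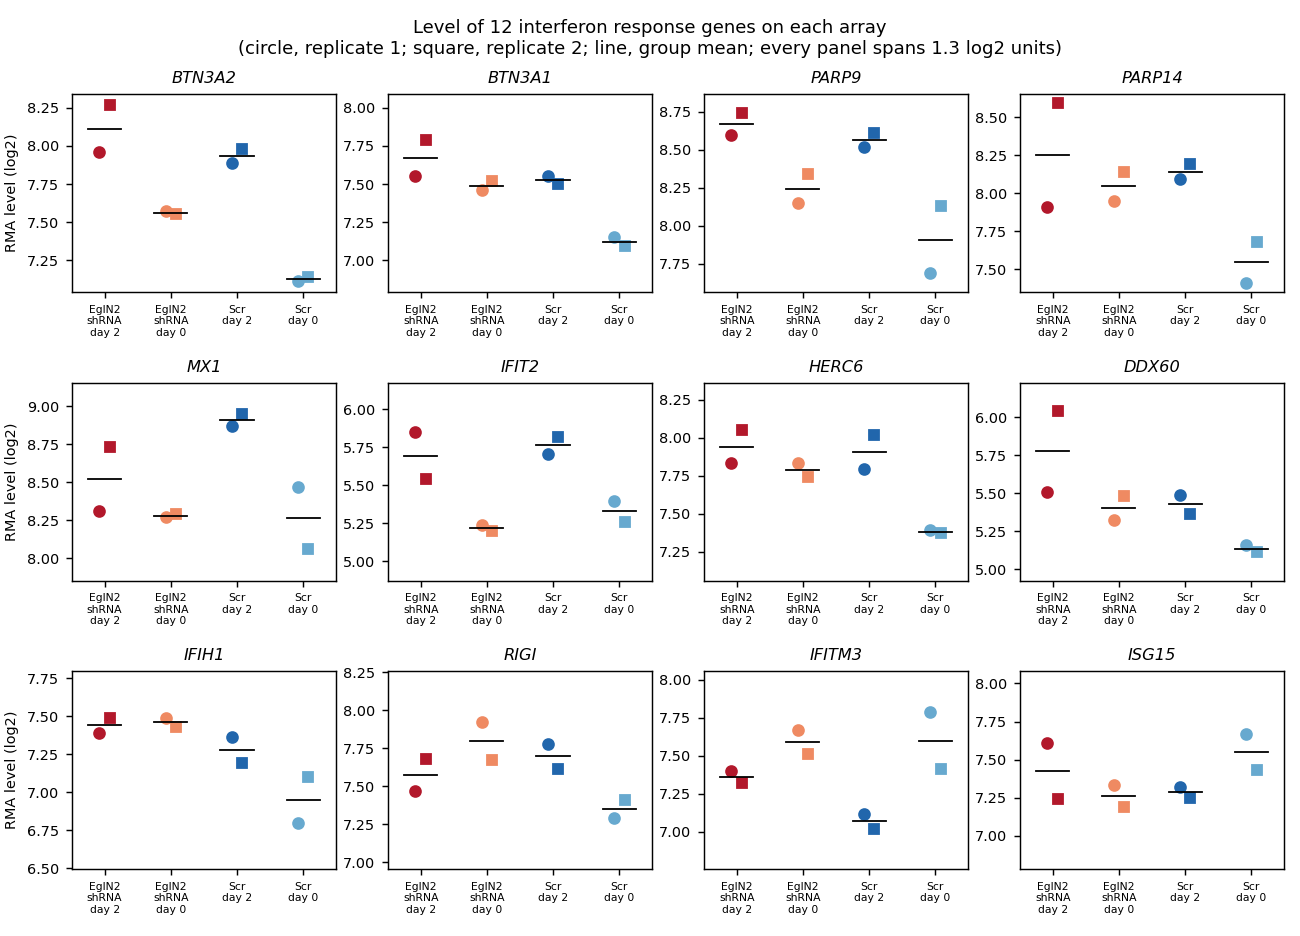
RMA level (log2) of 12 members on every array, by line and day. Circles are replicate 1, squares replicate 2 and lines group means, and every panel spans the same height. In BTN3A2 all 4 day 2 arrays (7.89 to 8.27) lie above all 4 day 0 arrays (7.11 to 7.57).

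The other members did not pass, and most of their values were positive. Averaged over both lines, 45 of the 52 probe sets had a positive day 2 minus day 0 difference and 6 a negative one. Over all named probe sets 47.8% were positive. The median was 0.151, against -0.005 over all. At an unadjusted p under 0.05, 20 members were higher and 1 lower, where the same rule held for 6.47% and 4.27% of all named probe sets. Every TAP2 probe set and several that share HLA-B are among the 20. Counts of members here and below are counts of probe sets, and repeated readings of 1 gene add to them. Within each line, day 2 lay above day 0 without overlap for 11 members and below it for 1, IFITM3, against 5.24% and 4.07% of all. The count of 20 became 10 on omitting replicate 2 of Scr day 2, 12 on omitting its replicate 1 and 12 on omitting replicate 2 of EglN2 shRNA day 0. The plot of all 52 differences gives each with its interval.

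**Figure D3:**
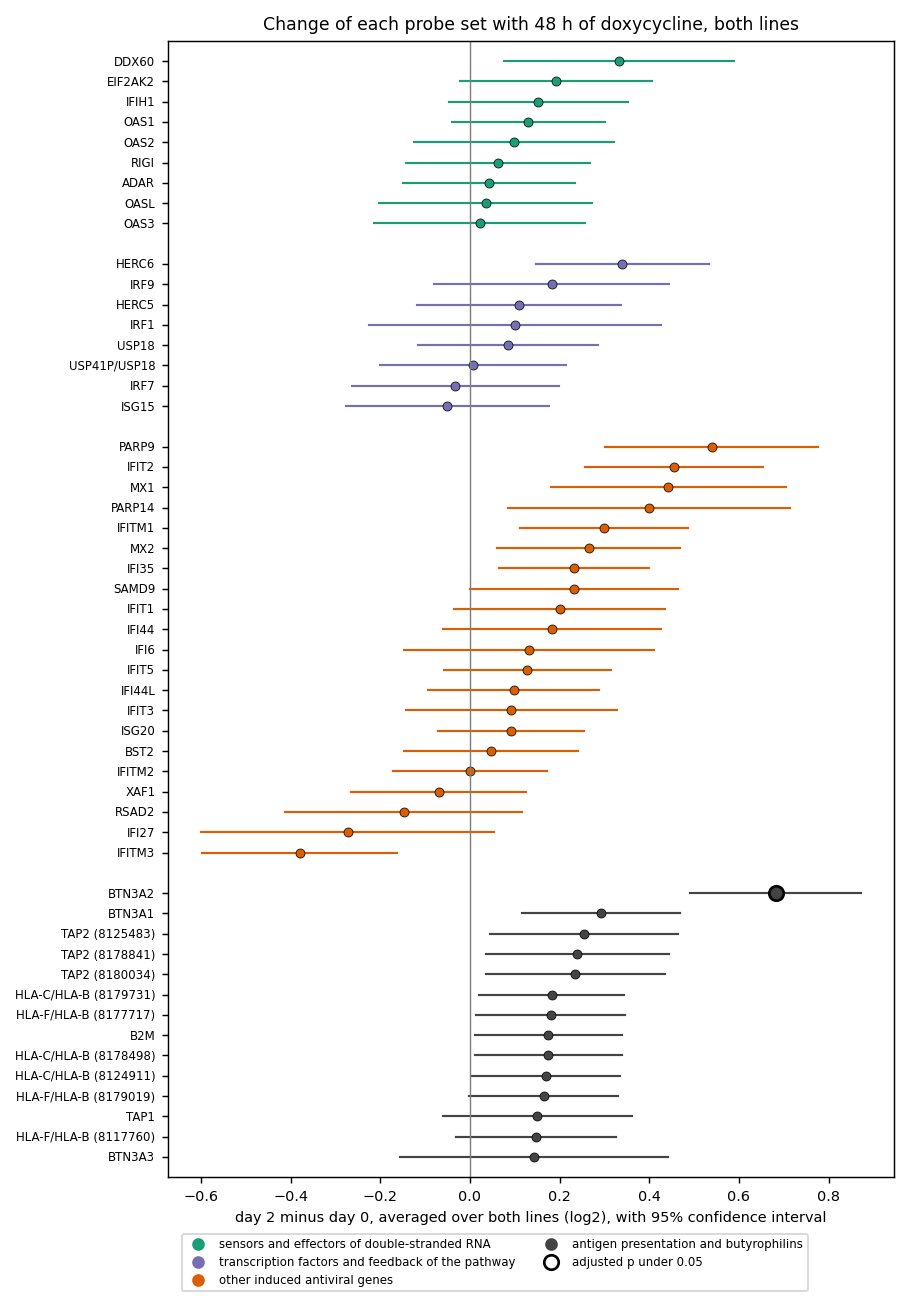
Day 2 minus day 0 difference averaged over both lines (log2, horizontal axis) for each of the 52 member probe sets, with 95% confidence intervals, ordered within 4 roles. BTN3A2 (0.68, heavy ring) is the only one with an adjusted p under 0.05; IFITM3 lies farthest to the left, at -0.38.

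Among antigen presentation genes and butyrophilins, all 14 probe sets had a positive averaged difference, with a median of 0.178. Several of the 14 are repeated readings of TAP2 or of HLA genes. BTN3A1, a sister of BTN3A2, read 7.55 and 7.79 in EglN2 shRNA cells at day 2 and 7.46 and 7.52 at day 0, against 7.55 and 7.50 in Scr cells at day 2 and 7.15 and 7.09 at day 0. Its arrays were lowest in Scr cells at day 0, and the averaged difference of 0.29 (SE 0.08) did not pass (limma, adjusted p = 0.252). The third butyrophilin, BTN3A3, overlapped between days, at 5.56 and 6.23 in EglN2 shRNA cells at day 2 and 5.85 and 5.77 at day 0, against 5.99 and 5.96 in Scr cells at day 2 and 5.89 and 5.66 at day 0. The BTN3A genes are closely alike in sequence, so a probe set may read more than 1 of them.

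B2M, the light chain of every HLA class I molecule, read 11.66 and 11.79 in EglN2 shRNA cells at day 2 and 11.64 and 11.52 at day 0, against 11.63 and 11.61 in Scr cells at day 2 and 11.42 and 11.41 at day 0. Scr day 0 was again the lowest pair. The HLA-C and HLA-B probe set 8179731 was also lowest there, at 12.66 and 12.58 in EglN2 shRNA cells at day 2 and 12.59 and 12.47 at day 0, against 12.59 and 12.67 in Scr cells at day 2 and 12.37 and 12.34 at day 0. From day 0 to day 2 the HLA-F and HLA-B probe sets 8117760, 8177717 and 8179019 changed by -0.02, -0.01 and -0.03 in EglN2 shRNA cells. In Scr cells they changed by 0.315, 0.37 and 0.36. The 6 HLA probe sets share sequence and are not 6 separate measurements. TAP2, a subunit of the transporter that carries peptides into the endoplasmic reticulum, was read by 3 probe sets, each with a positive averaged difference. TAP2 stood at 0.255, 0.24 and 0.235 in these, which are repeated readings of 1 gene. Its probe set 8125483 read 9.01 and 9.14 in EglN2 shRNA cells at day 2 and 9.01 and 8.80 at day 0, against 8.90 and 9.19 in Scr cells at day 2 and 8.64 and 8.77 at day 0, where the EglN2 shRNA day 0 and day 2 arrays met at 9.01. TAP1, its partner, ranged from 10.10 to 10.53, with its lowest value on a Scr day 0 array.

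Among the other antiviral genes, PARP9 and PARP14 encode ADP-ribosyltransferase family proteins induced by interferon. PARP9 read 8.60 and 8.74 in EglN2 shRNA cells at day 2 and 8.15 and 8.34 at day 0, against 8.52 and 8.61 in Scr cells at day 2 and 7.69 and 8.13 at day 0. Every day 2 array was above every day 0 array, and the averaged difference of 0.54 (SE 0.11) did not pass (limma, adjusted p = 0.106). PARP14 read 7.91 and 8.59 in EglN2 shRNA cells at day 2 and 7.95 and 8.14 at day 0, against 8.09 and 8.19 in Scr cells at day 2 and 7.41 and 7.68 at day 0. Its EglN2 shRNA days overlapped and its Scr days did not.

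IFIT2 encodes a protein that inhibits translation of foreign RNA. It read 5.85 and 5.54 in EglN2 shRNA cells at day 2 and 5.24 and 5.20 at day 0, against 5.71 and 5.82 in Scr cells at day 2 and 5.40 and 5.26 at day 0. The days did not overlap in either line, and the averaged difference was 0.46 (SE 0.09; limma, adjusted p = 0.105). Its relatives showed smaller averaged differences: 0.20 for IFIT1, 0.13 for IFIT5 and 0.09 for IFIT3. MX1, a dynamin-like GTPase that blocks influenza virus, read 8.31 and 8.73 in EglN2 shRNA cells at day 2 and 8.27 and 8.29 at day 0, against 8.87 and 8.95 in Scr cells at day 2 and 8.47 and 8.06 at day 0. The days did not overlap within either line, narrowly so in EglN2 shRNA cells, and the averaged difference of 0.44 (SE 0.12) did not pass (limma, adjusted p = 0.247).

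Not every antiviral gene leaned upward. IFITM3, a membrane protein that hinders viral fusion, read 7.40 and 7.32 in EglN2 shRNA cells at day 2 and 7.67 and 7.51 at day 0, against 7.12 and 7.02 in Scr cells at day 2 and 7.79 and 7.41 at day 0. All day 2 arrays were below all day 0 arrays, and the averaged difference of -0.38 (SE 0.10) did not pass (limma, adjusted p = 0.221). IFITM1, a close relative, had an averaged difference of 0.30 and IFITM2 of 0; the near-identical copies limit what these probe sets separate. IFI27, a mitochondrial protein induced strongly by interferon alpha, averaged -0.27, RSAD2 (viperin) -0.15 and XAF1, a partner of an apoptosis inhibitor, -0.07. RSAD2 was dim, at a mean level of 4.86. With each array left out its averaged difference ran from -0.287 to -0.007, and that of XAF1 from -0.132 to -0.007.

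All 9 sensors and effectors of double-stranded RNA had a positive averaged difference, with a median of 0.098 and a lowest value of 0.02, for OAS3. DDX60, a helicase reported to aid RIG-I, read 5.51 and 6.04 in EglN2 shRNA cells at day 2 and 5.32 and 5.48 at day 0, against 5.49 and 5.36 in Scr cells at day 2 and 5.16 and 5.11 at day 0. Days did not overlap within either line, and the difference of 0.33 (SE 0.11) did not pass (limma, adjusted p = 0.368). EIF2AK2, the kinase PKR, averaged 0.19, IFIH1 0.15 and ADAR, which edits adenosine in double-stranded RNA, 0.04. Among transcription factors and feedback genes 6 of 8 probe sets were positive. HERC6, related to the ligase for the ubiquitin-like protein ISG15, read 7.83 and 8.05 in EglN2 shRNA cells at day 2 and 7.83 and 7.74 at day 0, against 7.79 and 8.02 in Scr cells at day 2 and 7.39 and 7.37 at day 0. Its Scr day 0 pair stood lowest, with an averaged difference of 0.34 (SE 0.09; limma, adjusted p = 0.214). ISG15 averaged -0.05 and IRF7, which drives interferon genes, -0.03. USP18, which removes ISG15 from proteins, averaged 0.09, and 0.0075 on the probe set it shares with USP41P.

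The next comparison asked about 48 h of doxycycline in EglN2 shRNA cells. None of the 52 members passed (limma, smallest adjusted p = 0.294), where 0.00943% of all named probe sets did. The median difference was 0.078, against 0.005 over all, with 34 positive and 17 negative. At an unadjusted p under 0.05, 5 members were higher and 0 lower, where 2.73% and 3.04% of all were. Day 2 lay above day 0 without overlap for 13 members and below it for 3, against 15.2% and 15.5% of all. The 5 were BTN3A2 at 0.56, IFIT2 at 0.47, PARP9 at 0.42, DDX60 at 0.38 and MX2, a relative of MX1, at 0.36. IFI27 at -0.26, IFITM3 at -0.23 and RIGI at -0.22 had the most negative values. The count of 5 became 3 on omitting replicate 1 of EglN2 shRNA day 0, and it became 9 on omitting replicate 1 of EglN2 shRNA day 2. The median was 0.03 on omitting replicate 2 of EglN2 shRNA day 0, 0.122 on omitting its replicate 1 and 0.04 on omitting replicate 2 of EglN2 shRNA day 2.

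The same question was asked of Scr cells, where BTN3A2 had the largest difference. None of the 52 members passed (limma, smallest adjusted p = 0.145), and 0% of all named probe sets did. The median difference was 0.268, against -0.01 over all, with 45 positive and 7 negative. At an unadjusted p under 0.05, 24 members were higher and 1, IFITM3, lower, where 7.49% and 5.36% of all were. Day 2 lay above day 0 without overlap for 34 members and below it for 2, against 23.0% and 24.8% of all. All 14 antigen presentation and butyrophilin probe sets were among the 34. Every TAP2 and every HLA probe set was also among the 24, and these are repeated readings. The largest differences were BTN3A2 at 0.81, PARP9 at 0.66, MX1 at 0.65 and PARP14 at 0.60, followed by HERC6 and SAMD9, an antiviral restriction factor, at 0.53 each. IFITM3 at -0.53, IFI27 at -0.29 and ISG15 at -0.27 were at the other end. The count of 24 was 15 without Scr day 2 replicate 2.

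The changes of the 2 lines come from different arrays. Across the 52 probe sets they correlated at Pearson r = 0.508 and Spearman rho = 0.321, against 0.146 and 0.0897 across all named probe sets, a description over probe sets that share arrays and are not independent. The difference was positive in both lines for 31 members (59.6%; 25.7% of all) and larger in Scr cells for 37 (71.2%; 48.8% of all).

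**Figure D4:**
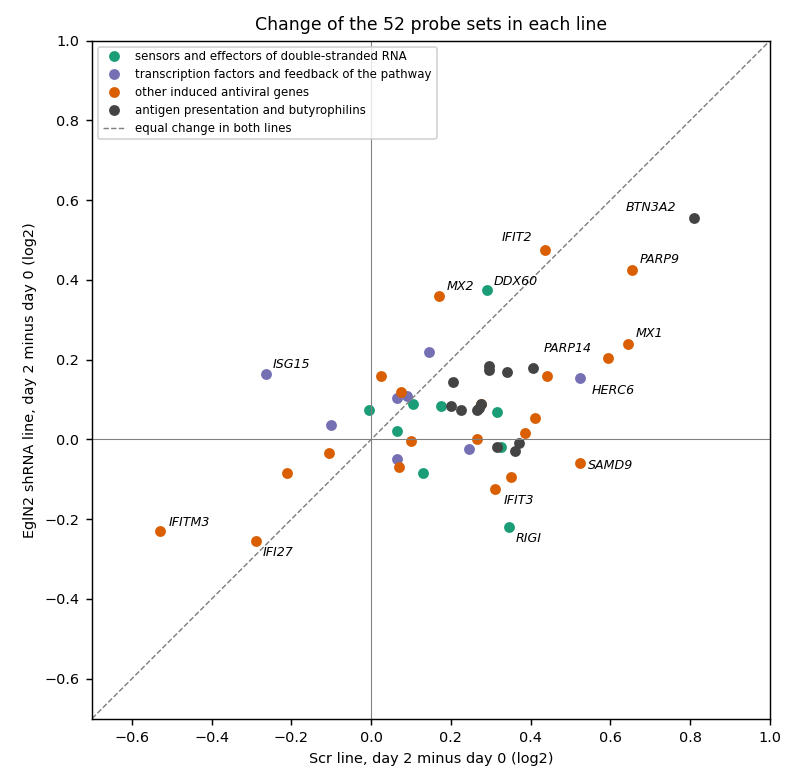
Day 2 minus day 0 difference (log2) of each of the 52 member probe sets in EglN2 shRNA cells (vertical axis) and in Scr cells (horizontal axis), coloured by role, with the line of equal change dashed. BTN3A2 (0.81 in Scr cells) is farthest to the right, and 37 of 52 points lie below the dashed line.

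The difference of the 2 changes, EglN2 shRNA minus Scr, tests whether the lines responded unequally. None of the 52 members passed (limma, smallest adjusted p = 0.676), and 0% of all named probe sets did, so that an unequal response was not shown for any member. The median was -0.16, against 0.005 over all, with 15 positive and 37 negative. All 14 antigen presentation and butyrophilin probe sets were negative, from -0.39 to -0.06. At an unadjusted p under 0.05, 0 members were higher and 6 lower, where 3.14% and 3.98% of all were. SAMD9 (-0.58), RIGI (-0.56), IFIT5 (-0.45), IFIT3 (-0.43) and MX1 (-0.41) had the most negative single-gene values, while ISG15 (0.43), IFITM3 (0.30) and MX2 (0.19) had the most positive. The count of 6 became 13 on omitting replicate 2 of EglN2 shRNA day 2, 2 on omitting replicate 1 of EglN2 shRNA day 0 and 3 on omitting replicate 1 of Scr day 2, and the median was -0.102 without EglN2 shRNA day 2 replicate 1.

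RIGI and ISG15 show the 2 directions. RIGI read 7.47 and 7.68 in EglN2 shRNA cells at day 2 and 7.92 and 7.67 at day 0, against 7.78 and 7.61 in Scr cells at day 2 and 7.29 and 7.41 at day 0. Its Scr day 0 pair was lowest and an EglN2 shRNA day 0 array highest. ISG15, a ubiquitin-like protein, read 7.61 and 7.24 in EglN2 shRNA cells at day 2 and 7.33 and 7.19 at day 0, against 7.32 and 7.25 in Scr cells at day 2 and 7.67 and 7.43 at day 0. The Scr days did not overlap, and the EglN2 shRNA days did.

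The lines were then compared before doxycycline. None of the 52 members passed between EglN2 shRNA and Scr cells at day 0 (limma, smallest adjusted p = 0.455), and 0% of all named probe sets did. The median difference was 0.162, against 0.005 over all, with 39 positive and 13 negative, and all 14 antigen presentation and butyrophilin probe sets were positive. At an unadjusted p under 0.05, 10 members were higher and 1 lower, where 5.16% and 5.27% of all were. EglN2 shRNA cells lay above Scr cells without overlap for 28 members and below for 4, against 22.2% and 22.9% of all. IFIH1, which encodes the sensor MDA5, read 7.49 and 7.43 in EglN2 shRNA cells and 6.80 and 7.10 in Scr cells, a difference of 0.51 (SE 0.13). PARP14 differed by 0.50, RIGI by 0.45, BTN3A2 by 0.44, and HERC6 and SAMD9 by 0.41 each, while IFI27 at -0.47, RSAD2 at -0.30 and ISG15 at -0.29 leaned the other way. The count of 10 became 6 on omitting replicate 1 of Scr day 0 and 6 on omitting replicate 2 of EglN2 shRNA day 0. This comparison, the Scr change and the difference of changes all use the 2 Scr day 0 arrays, so their values do not bear on one another independently.

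The lines were also compared after doxycycline, at day 2. None of the 52 members passed between EglN2 shRNA and Scr cells (limma, smallest adjusted p = 0.952), where 0.0754% of all named probe sets did. The median was -0.01, against 0.005 over all, with 23 positive and 28 negative, and its sign turned with the arrays centred on their medians (0.01) and on omitting replicate 2 of Scr day 2 (0.025). It was -0.055 on omitting replicate 1 of Scr day 2 and -0.04 on omitting replicate 2 of EglN2 shRNA day 2. IFI27 at -0.44 and MX1 at -0.39 were lowest, and DDX60 at 0.35 and IFITM3 at 0.29 highest. With each array left out in turn, IFI27 ran from -0.74 to -0.14, MX1 from -0.60 to -0.18 and DDX60 from 0.09 to 0.61. BTN3A2 differed by 0.18 (SE 0.12), with overlapping arrays.

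The rest of the pathway was read from 6 lists, with 67 genes named by 71 probe sets. None of the 71 passed in any of the 6 comparisons (limma). Averaged over both lines, 50 were positive and 21 negative, with a median of 0.04, and 7 were higher and 3 lower at an unadjusted p under 0.05, where 6.47% and 4.27% of all named probe sets were. In the list of class I loading and the immunoproteasome, the form of the proteasome that cuts peptides for HLA class I, 13 of 16 probe sets were positive. Its subunits PSMB9 and PSMB8 differed by 0.57 and 0.35 (limma, adjusted p = 0.288 and 0.274), and the peptide trimmer ERAP2 by 0.37. The third immunoproteasome subunit, PSMB10, named after its value was seen, stood at -0.24. All 8 receptors and kinases were positive, and the smallest p belonged to JAK1 at 0.22, IFNGR2 at 0.16 and IFNAR2 at 0.18. Of the 11 probe sets for signalling from sensors 9 were positive, with DHX58, a relative of RIG-I, at 0.41, TANK at 0.23 and TLR3 at 0.22.

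The interferon ligands themselves were split, 4 positive and 4 negative, with IFNL2 at -0.34, IFNL3 at -0.20 and IFNG at 0.12, and IFNL2 and IFNL3 are near-identical. IFNB1, IFNE, IFNG and IFNK were dim on every array, at 3.82 to 4.6, so the signs of their differences say little. The list held no interferon alpha gene. Of 5 negative regulators 2 were positive, and SOCS3 at -0.11, PTPN2 at -0.08 and PIAS1 at 0.06 had the smallest p. Among 23 probe sets of further interferon-induced genes 14 were positive and 9 negative. GBP2, a guanylate-binding GTPase, stood at -0.44 (limma, adjusted p = 0.17), NMI at -0.39 and UBE2L6, the conjugating enzyme for ISG15, at 0.21.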

How the data were processed

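The authors deposited 1 log2 value per probe set and array. Per the submitters' processing notes, the tools were RMA and Affymetrix Expression Console. Versions and the genome build of the array were not given in the sources used here. They carry 2 decimals, run from 2.73 to 15.25 and were used with no further scaling. RMA compresses differences of dim probe sets. Groups and replicate numbers came from the sample titles. Probe sets were named from the platform's probe table, with symbols updated through RefSeq (DDX58 became RIGI); 21214 of 33297 carry a gene name and were tested, and the 12083 without one were left out.

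A model with 1 mean per group was fitted over the 8 arrays by limma 3.58.1 under R 4.3.3 (lmFit, eBayes; 4 residual and 5.53 prior degrees of freedom, prior SD 0.124). Tests were two-sided with Benjamini-Hochberg adjustment over 21214 probe sets and a threshold of 0.05. Unadjusted p-values, medians and counts over the members are descriptions. The scripts were tested on simulated data. The members, gene lists and tests were chosen with earlier results of these data known. The text names every member past the threshold, members by role with their levels, and up to 6 of the largest differences in each direction and comparison, and the 3 genes of smallest p from each of the 6 pathway lists.

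Alternatives were the replicate number as a block, a prior variance following the mean level, a robust prior, arrays centred on their medians, quantile normalization, a filter on dim probe sets, all probe sets of the table, single-gene probe sets only, only the arrays compared, leaving out each array, and, chosen after seeing the data, 1 probe set per gene name. Scanner files were not used here.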

Additional observations from a re-analysis of the deposited data

How the results depend on the processing

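With 2 arrays a group, small differences of any member, bright or dim, could go undetected. Only 1 array in each group could be left out. The lone array left in a group is then assumed to vary like the other groups. Of 58 counts of called members under the settings that keep all arrays, 54 stayed within 1.5 times the reported count. The reported count was 0 in every comparison but the average over both lines. Most of the 54 are therefore 0 that stayed 0, which says little of how stable a call is. The counts that moved are given next. The replicate number as a block gave 1 called member in the Scr change (BTN3A2, limma adjusted p = 0.0341) and 3 averaged over both lines (BTN3A2, IFIT2 at 0.0499 and PARP9 at 0.0289), with 42 and 150 probe sets called over all. The labels do not pair equal numbers, and their deviations correlated at 0.0981 to 0.271. Averaged over both lines, the count was 0 with the filter on dim probe sets, which drops BTN3A2, and 0 with all probe sets of the table (BTN3A2, limma adjusted p = 0.192); the cause was not tested.

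The median member difference under quantile normalization was 0.228 in the Scr change, -0.105 in the difference of changes and 0.1 between the lines at day 0. With single-gene probe sets only it was -0.12 in the difference of changes and 0.115 between the lines at day 0. With each array left out it ran from 0.03 to 0.122 in the EglN2 shRNA change, 0.215 to 0.285 in the Scr change, -0.218 to -0.102 in the difference of changes, -0.055 to 0.025 between the lines at day 2, 0.11 to 0.19 at day 0 and 0.135 to 0.181 averaged over both lines. The called count stayed at 0 in every comparison except the average, where it ran from 0 to 1.

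Some single genes that had not passed the test turned sign when an array was left out; the cause was not tested. In the EglN2 shRNA change IFIT5 ran from -0.205 to 0.015 and OAS3 from -0.225 to 0.055. In the Scr change IFI27 ran from -0.59 to 0.01, RSAD2 from -0.49 to 0.07 and IRF7 from -0.315 to 0.115. In the difference of changes RSAD2 ran from -0.155 to 0.405 and IRF7 from -0.08 to 0.35. Between the lines at day 0 OAS2 ran from -0.425 to 0.005, IRF7 from -0.405 to 0.025 and OASL from -0.43 to 0.06. Averaged over both lines ISG15 ran from -0.142 to 0.043 and IRF7 from -0.14 to 0.075.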
